A study of Mus musculus with 8 samples.

Results

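The complement components and regulators described here are 9 genes, picked by symbol out of the 24787 rows of a table of RNA values from 4T1 cells, a mouse mammary carcinoma line. They are C3, C1s1, C1ra, C1rl, Cfb, Cfd, Serping1, Cd55 and Cd59a. They were chosen with their values in the comparison of Etv5 shRNA with control shRNA already known, so everything given for them in that comparison is a description and supports nothing further. RNA was sequenced in 2 groups of 4 libraries each. The first carried an shRNA targeting Etv5, a gene for a transcription factor of the ETS family, and was labelled as an Etv5 knockdown. The second carried a control shRNA and was labelled wild type. Each group has a single construct name in the file headers, and whether the cells were clones or pools is not given in the sources used here. No label says that replicates came from separate cultures, so the spread between libraries may be technical. The series concerns tumour-cell ETV5, myeloid-derived suppressor cells and resistance to checkpoint inhibitors.

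Complement is a cascade of plasma proteins that tags cells and microbes for uptake and can lyse them. In the classical pathway, C1q bound to antibody activates the proteases C1r and C1s, which lead to cleavage of C4 and C2 and then of C3, the central component. In the alternative pathway, factor D cleaves factor B on C3 fragments and so amplifies the cascade, while soluble and membrane-bound inhibitors keep it off the cells of the host. The liver makes most plasma complement, and epithelial, tumour and myeloid cells also transcribe parts of it.

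Values are called coverage values. They were read, from the column names and the values themselves, as mean read coverage per base of a gene scaled to library depth, since the program that made them is not given in the sources used here. Levels of different genes are compared below as per-length values, which rests on that reading. In both groups C3 was far above the other members, and C3, C1s1 and C1ra were lower in every Etv5 shRNA library than in every control shRNA library. The other 6 members lay below 0.5 in all 8 libraries.

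The promoter of C3 is shown because C3 carried the largest coverage and the largest difference, and that of C1s1 because it had the largest ratio among the members above the filter on low values. Both are from RefSeq on the build GRCm38.p6, the assembly of mm10, read 5′ to 3′ on the minus strand. C3 lies at chr17:57228137-57228386, bases -250 to -1 from its start site. C1s1 lies at chr6:124542393-124542609, bases -250 to -34 from the start site at 124542359. It stops at the end of the RefSeq gene body, at 124542392. Capitals mark a match on either strand to TTGCNNAA, the C/EBP motif, where N is any base.
C3: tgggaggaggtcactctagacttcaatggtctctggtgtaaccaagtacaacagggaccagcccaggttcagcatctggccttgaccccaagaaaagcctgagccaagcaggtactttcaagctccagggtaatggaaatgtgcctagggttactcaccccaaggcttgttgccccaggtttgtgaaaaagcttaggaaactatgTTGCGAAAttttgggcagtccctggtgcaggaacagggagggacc
C1s1: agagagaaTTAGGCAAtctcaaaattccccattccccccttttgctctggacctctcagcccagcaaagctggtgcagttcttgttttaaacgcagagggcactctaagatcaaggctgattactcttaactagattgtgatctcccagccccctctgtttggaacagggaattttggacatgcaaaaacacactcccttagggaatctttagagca
The motifs, searched on both strands, were the ETS motif AGGAAG, the STAT motif TTCNNNGAA, the C/EBP motif TTGCNNAA and the kappaB motif. Of the 9 members, 7 had a promoter in the table used, and each window of 250 bases before a start site was searched. C3 held the C/EBP motif at -45 to -38 and none of the other 3 motifs. C1s1 held the C/EBP motif at -242 to -235, and AGGAAG at -8 to -3, beyond the printed stretch. From the other C1s1 start site in the table, at 124542321, AGGAAG lay at -46 to -41 and the window held no C/EBP motif. C1rl held the C/EBP motif at -243 to -236, and C1ra, Cfd, Cd55 and Cd59a held none of the 4. Of 32851 promoter windows, 9.56% held the C/EBP motif, 29.5% AGGAAG, 7.02% the STAT motif and 7.25% the kappaB motif. A match is a run of letters and not a measured site.

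**Figure D1:**
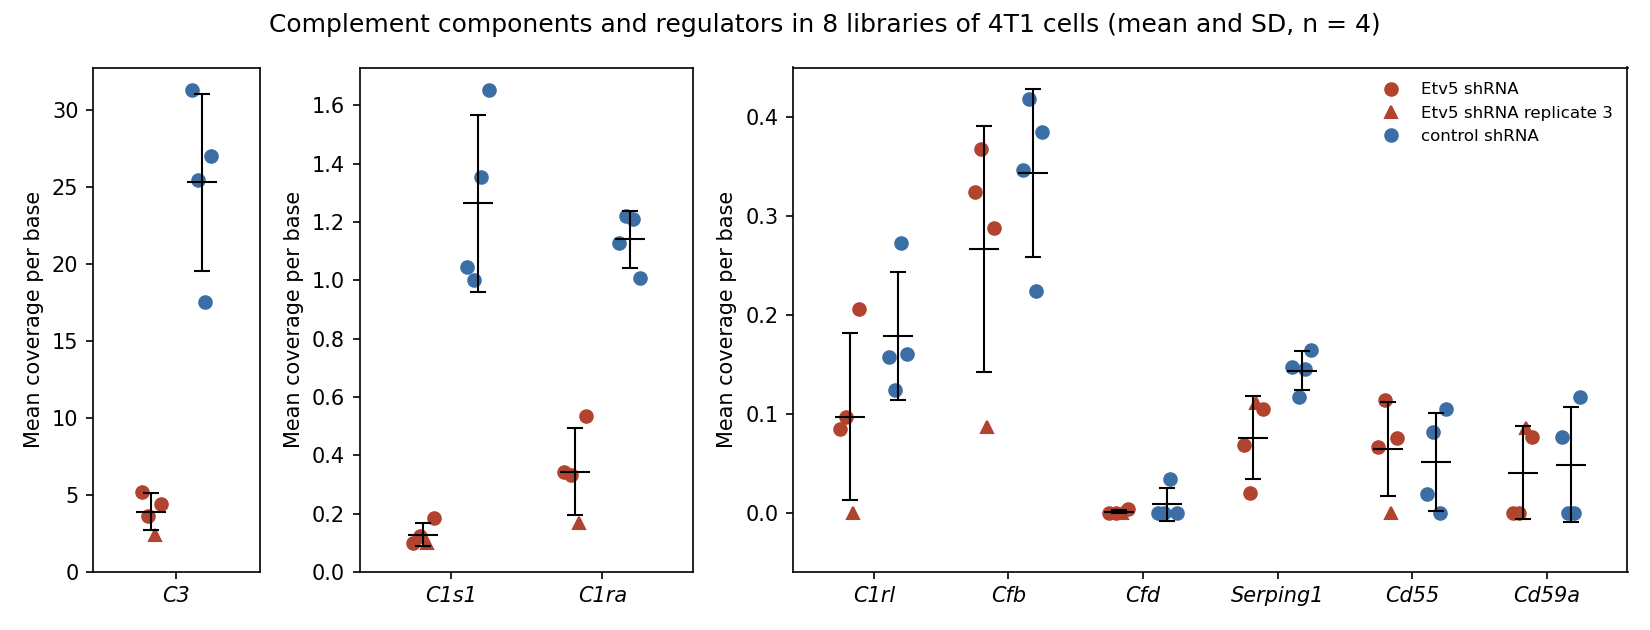
Coverage values (mean coverage per base, linear axes, a separate scale in each panel) of the 9 genes in each library, with Etv5 shRNA left of control shRNA; bars give the mean and SD of 4 libraries, and triangles mark Etv5 shRNA replicate 3. The groups do not overlap for C3, C1s1, C1ra and Serping1, and overlap for the other 5.

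One library stood apart, and it bears on every value below. Etv5 shRNA replicate 3 had the highest sum of coverage values of all 8 libraries, 390495 against 254792 to 308393 in the other 7, and the fewest genes above 0, 13920 against 15126 to 15379. Genes named as ribosomal proteins held 21.7% of its sum and 7.85% to 11.9% in the others. Control shRNA replicate 3 deviated the same way, but less, within its own group. It had the highest sum of the controls, 308393, the highest ribosomal protein share, 11.9%, and the fewest genes above 0, 15126. What sets these libraries apart was not tested. Differences between the groups are given with and without Etv5 shRNA replicate 3, or as the value of each library. Etv5 itself was at 13.04, 11.2, 7.52 and 12.7 in the Etv5 shRNA libraries and at 15.2, 15.1, 11.7 and 14.4 in the control shRNA libraries, so the groups overlapped. Its log2 fold change was -0.33 (95% interval -0.76 to 0.09), with adjusted p 0.819 by limma and p = 0.0857 by an exact two-sided permutation test, where the smallest possible was 0.0286. Without Etv5 shRNA replicate 3 it was -0.17, with adjusted p 0.422 by limma. No drop in Etv5 RNA was thus called in the libraries labelled as its knockdown, and the groups below go by their labels. Etv5 shares 26.8% of its 50-base stretches with Gm4798. Epithelial markers were present, with all 8 of the listed keratin, Epcam, Cdh1 and claudin genes above the filter.

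C3 encodes the component on which all routes of complement activation meet. The gene spans chr17:57203970-57228136 of mm10, minus strand. Its coverage values were 5.201, 3.64, 2.42 and 4.43 in the Etv5 shRNA libraries, against 31.3, 25.4, 17.6 and 27.01 in the control shRNA libraries. The groups did not overlap, and the lowest control, replicate 3, was still above the highest Etv5 shRNA library. The mean was 3.92 ± 1.19 with the Etv5 shRNA and 25.3 ± 5.75 with the control shRNA (SD, n = 4 each), 6.46-fold lower with the Etv5 shRNA. Leaving out Etv5 shRNA replicate 3 gave 4.42 ± 0.78 (SD, n = 3), 5.73-fold lower. Among 11731 genes above the filter, ranked from the highest mean of 4 libraries down, C3 stood at rank 8156 with the Etv5 shRNA and at rank 2248 with the control shRNA.

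C1s1 encodes the C1s protease and C1ra the C1r protease, which form the enzymatic core of the first component. They lie 6902 bases apart on chromosome 6, on opposite strands, C1ra from 124512405 to 124523443 and C1s1 from 124530345 to 124542359. C1s1 was at 0.1002, 0.125, 0.101 and 0.185 in the Etv5 shRNA libraries, against 1.05, 1.001, 1.35 and 1.65 in the control shRNA libraries. C1ra was at 0.342, 0.333, 0.166 and 0.535 in the Etv5 shRNA libraries, against 1.13, 1.22, 1.21 and 1.01 in the control shRNA libraries. Neither gene's groups overlapped, and Etv5 shRNA replicate 4 was the highest of its group for both.

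The mean of C1s1 was 0.128 ± 0.040 with the Etv5 shRNA and 1.26 ± 0.30 with the control shRNA (SD, n = 4 each), 9.90-fold lower, and 9.25-fold lower without Etv5 shRNA replicate 3. That of C1ra was 0.344 ± 0.151 with the Etv5 shRNA and 1.14 ± 0.098 with the control shRNA (SD, n = 4 each), 3.31-fold lower, and 2.83-fold lower without that replicate. The level of C1s1 was 0.293, 0.375, 0.605 and 0.346 of that of C1ra in the Etv5 shRNA libraries, and 0.930, 0.821, 1.12 and 1.64 of it in the control shRNA libraries. C1s1 was thus below C1ra in each Etv5 shRNA library, and below or above it, by library, with the control shRNA. Both genes have copies close in sequence, C1rb and C1s2, whose reads the counting may have split. Of the 50-base stretches of the longest C1ra transcript, 50.8% also occur in other genes, 48% in C1rb, and of those of C1s1 39% do, 24.3% in C1s2. Their separate levels are therefore uncertain.

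The copies had lower values too. C1rb was at 0.161, 0.0949, 0.0823 and 0.323 in the Etv5 shRNA libraries and at 0.487, 0.380, 0.394 and 0.335 in the control shRNA libraries. C1s2 was at 0.0160, 0.0178, 0.0679 and 0.0718 in the Etv5 shRNA libraries and at 0.287, 0.183, 0.124 and 0.296 in the control shRNA libraries. For both copies the groups did not overlap, and neither passed the filter. How much of their coverage came from C1ra and C1s1 was not tested.

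C1rl, which encodes a C1r-like protease, lies next to C1ra on chromosome 6, from 124493113 to 124510643. It was at 0.0850, 0.0962, 0 and 0.206 in the Etv5 shRNA libraries, against 0.158, 0.124, 0.273 and 0.160 in the control shRNA libraries. The groups overlapped through Etv5 shRNA replicate 4. The 2 proteases of the alternative pathway were low in both groups. Cfb, the gene of factor B, was at 0.324, 0.368, 0.0864 and 0.288 in the Etv5 shRNA libraries, against 0.346, 0.418, 0.224 and 0.385 in the control shRNA libraries. Its groups overlapped, and without Etv5 shRNA replicate 3 the mean was 0.327 ± 0.040 (SD, n = 3), against 0.344 ± 0.085 with the control shRNA (SD, n = 4). Of the 50-base stretches of Cfb, 81.4% are also annotated in Gm20547, a gene that overlaps it on the same strand, so its coverage cannot be given to 1 of them. Cfd, the gene of factor D, also known as adipsin from fat cells, was at 0 in 6 of the 8 libraries, at 0.00326 in Etv5 shRNA replicate 4 and at 0.0335 in control shRNA replicate 3.

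Of the regulators, Serping1 encodes the C1 inhibitor, which inactivates C1r and C1s, and lies on chromosome 2 from 84765387 to 84775444. It was at 0.0684, 0.0198, 0.111 and 0.105 in the Etv5 shRNA libraries, against 0.147, 0.117, 0.146 and 0.165 in the control shRNA libraries. The groups did not overlap, but by 0.111 against 0.117 at the nearest. Cd55 encodes decay-accelerating factor and Cd59a an inhibitor of the membrane attack complex. Cd55 was at 0.0667, 0.114, 0 and 0.0755 in the Etv5 shRNA libraries and at 0.0188, 0.0814, 0 and 0.104 in the control shRNA libraries. Cd59a was at 0 in 2 Etv5 shRNA libraries and in 2 control shRNA libraries, and no higher than 0.117 in any. Both overlapped between the groups. Of the stretches of Cd55, 12.5% also occur in other genes, and of those of Cd59a 3.98%.

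How much sequence stood behind these values can be estimated, since the read depth is not given. Coverage value times transcript length was taken in genes with a single annotated transcript. Its most frequent size within the range searched was 36.2 to 47.8, by library. In Etv5 shRNA replicate 3 this size held 21 genes, against 56 to 75 in the others. Taking this size as the coverage of 1 sequenced fragment, C3 rested on about 307 to 623 fragments in the Etv5 shRNA libraries and about 2093 to 3414 in the control shRNA libraries. C1s1 rested on about 7 to 11 with the Etv5 shRNA and about 65 to 111 with the control shRNA, and C1ra on about 12 to 33 with the Etv5 shRNA and about 69 to 88 with the control shRNA. Serping1 rested on about 1 to 5 with the Etv5 shRNA and about 5 to 7 with the control shRNA. The other members reached at most 28 in any library, so that of these 6 genes only a large difference was detectable at this depth. The estimate covers counting only, and the fragment size is an inference from the values. By it Cfd came to less than 1 fragment where it was above 0, 0.0628 in Etv5 shRNA replicate 4 and 0.717 in control shRNA replicate 3. The fragment numbers are therefore rough.

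Group differences were fitted with limma on log2(value + 1) across all genes that reached 0.5 in 4 or more of the 8 libraries. Of 11731 genes so tested, 57 were lower with the Etv5 shRNA at an adjusted p under 0.05, 0.486% of them, and 1 was higher, 0.00852%. Of the 9 members, 3 passed the filter, and all of these were among the 57. C1s1 passed it through the control shRNA libraries alone, and C1ra through these and Etv5 shRNA replicate 4, at 0.535. Neither would have passed on its Etv5 shRNA values, so the members' share is not read against the background. The log2 fold change was -2.42 for C3 (95% interval -2.96 to -1.89, adjusted p 0.00234 by limma), -0.996 for C1s1 (-1.25 to -0.74, adjusted p 0.00483) and -0.68 for C1ra (-0.92 to -0.44, adjusted p 0.0355). Adding 1 before the logarithm shrinks the change of low genes, which is why C1s1 has a smaller log2 fold change than C3 and a larger ratio of means.

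Without Etv5 shRNA replicate 3, 3.14% of tested genes were called, 2.05% lower and 1.08% higher, and the 3 members were among the lower ones. The log2 fold change was then -2.26 for C3 (adjusted p 0.000185 by limma), -0.98 for C1s1 (0.00215) and -0.61 for C1ra (0.00955). C3 and C1s1 were called under each of 18 other settings, with adjusted p by limma of at most 0.0177 and 0.0491. These settings reuse the same libraries, so a repeated call is no further support. C1ra lost its call under 11 of them, among them each fit that left out a single library other than Etv5 shRNA replicate 3 (adjusted p 0.0504 to 0.178 by limma). A gene's groups did not overlap, with the Etv5 shRNA lower, in 7.58% of tested genes over 8 libraries and in 10.4% over 7. Serping1, C1rb and C1s2 did not pass the filter, so these shares do not cover them.

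**Figure D2:**
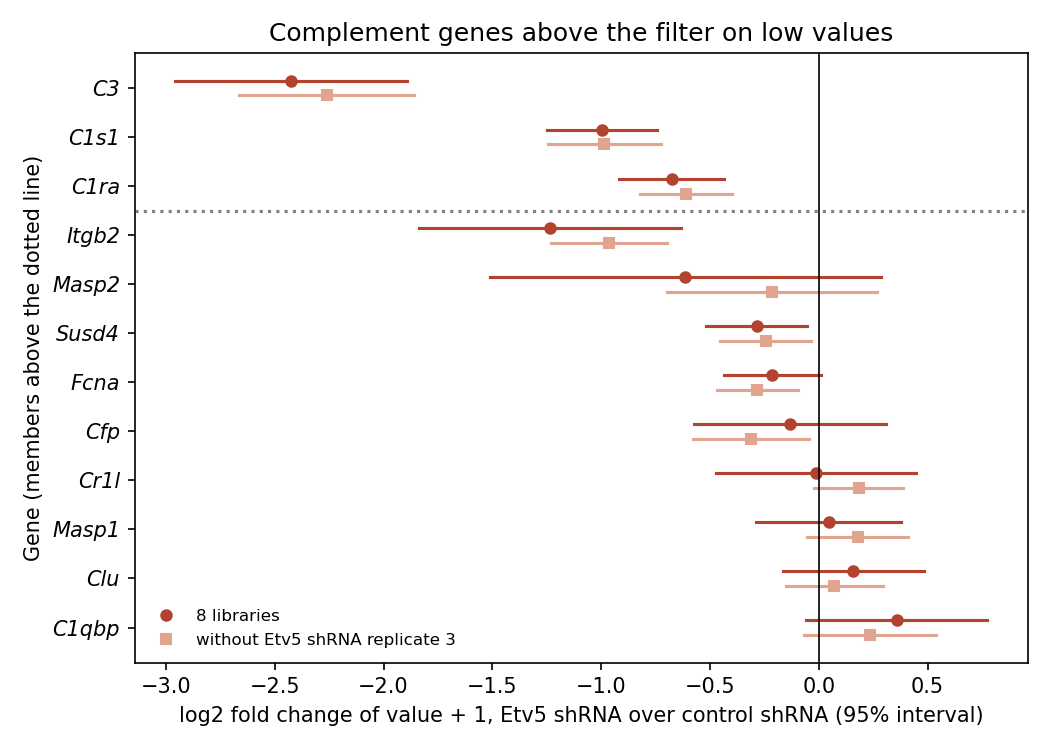
log2 fold change of value + 1, Etv5 shRNA over control shRNA, with 95% intervals from limma, for the 3 complement members (above the dotted line) and the 9 other complement genes that passed the filter on low values, over 8 libraries (circles) and without Etv5 shRNA replicate 3 (squares). C3 lies at -2.42 and Itgb2 at -1.23, and 7 of the 9 other genes have intervals that include 0 over 8 libraries.

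The rest of the pathway was taken from a list of 55 other complement genes, by textbook membership, of which 54 had a row. Most were barely present: 22 were at 0 in all 8 libraries, and 9 passed the filter. Of the recognition molecules, C1qa and C1qc were at 0 throughout and C1qb was no higher than 0.0330, so C1r and C1s transcripts were measured without those of their partner C1q. Of the lectins among the recognition molecules, Mbl1, Mbl2, Fcnb and Colec12 were at 0 as well. Colec10 reached 0.0207 and Colec11 0.0956, while Fcna passed the filter. C2 reached 0.0637 at most, C4a 0.221 and C4b 0.0659, and Hc, the gene of C5, 0.0271. Of the terminal components C8a, C8b, C9 and C7 were at 0 and C6 was no higher than 0.0146, while C8g, which belongs to the lipocalin family, reached 0.573.

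The 9 that passed the filter were not called over 8 libraries. By limma 0 of 9 were lower and 0 higher, and 2, Itgb2 and Susd4, had an unadjusted p under 0.05, as did 832 of the 11731 tested genes. The median log2 fold change of the 9 was -0.13, against -0.11 for all tested genes. With Etv5 shRNA replicate 3 left out, these medians were -0.22 and -0.00290. The most abundant was Clu, which encodes clusterin, an inhibitor of the terminal complex. It was at 112 ± 15.6 with the Etv5 shRNA and 99.7 ± 8.32 with the control shRNA (SD, n = 4 each), with a log2 fold change of 0.16 (95% interval -0.17 to 0.49), and 0.07 without Etv5 shRNA replicate 3. C1qbp, which encodes a mitochondrial protein that also binds C1q, was at 72.1 ± 13.8 with the Etv5 shRNA and 56.02 ± 10.7 with the control shRNA. Its log2 fold change was 0.36, and 0.23 without that replicate. Cr1l, the gene of Crry, the rodent membrane regulator of C3 convertases, was at 7.67 ± 2.09 with the Etv5 shRNA and 7.53 ± 0.555 with the control shRNA. Its log2 fold change was -0.01 (95% interval -0.47 to 0.45), and 0.18 (-0.02 to 0.39) without Etv5 shRNA replicate 3.

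Itgb2 encodes the β2 integrin chain shared by the complement receptors CR3 and CR4. It was at 4.85, 4.54, 1.496 and 3.58 in the Etv5 shRNA libraries, against 9.96, 10.1, 7.87 and 9.52 in the control shRNA libraries. The groups did not overlap, and Etv5 shRNA replicate 3 was the lowest library. The log2 fold change was -1.23 (SE 0.27), with an adjusted p of 0.147 by limma over 8 libraries. It was -0.96 (SE 0.12) without Etv5 shRNA replicate 3, with an adjusted p of 0.00312 by limma. Itgb2 was the single gene of the 9 called lower there. Of the 9, 4 then had an unadjusted p under 0.05 by limma, as did 2210 of the 11731 tested genes. The α chains with which the β2 chain forms CR3 and CR4 were near 0, with Itgam at 0.0489 at most and Itgax at 0.0218.

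Of the other 5 genes, Susd4 encodes a membrane regulator of complement and was at 0.873 ± 0.175 with the Etv5 shRNA and 1.28 ± 0.079 with the control shRNA. Its groups did not overlap, and its adjusted p was 0.520 by limma over 8 libraries and 0.200 without Etv5 shRNA replicate 3, with a log2 fold change of -0.29 and -0.24. Fcna, a ficolin gene, was at 0.467 ± 0.150 with the Etv5 shRNA and 0.695 ± 0.061 with the control shRNA, and Cfp, the gene of properdin, at 1.41 ± 0.674 with the Etv5 shRNA and 1.59 ± 0.341 with the control shRNA (SD, n = 4 each). In both, Etv5 shRNA replicate 3 was the highest of its group, and without it the Etv5 shRNA mean was 0.393 ± 0.016 for Fcna and 1.07 ± 0.050 for Cfp (SD, n = 3). The log2 fold change was then -0.28 in place of -0.21 for Fcna, and -0.31 in place of -0.13 for Cfp. Fcna passed the filter through the control shRNA libraries and Etv5 shRNA replicate 3, with the other Etv5 shRNA libraries below 0.5. Masp1, a protease gene of the lectin pathway, was at 0.658 ± 0.295 with the Etv5 shRNA and 0.591 ± 0.145 with the control shRNA, a log2 fold change of 0.05, and of 0.18 without Etv5 shRNA replicate 3. Masp2, its partner protease gene, was at 3.38 ± 1.97 with the Etv5 shRNA and 5.21 ± 1.63 with the control shRNA, a log2 fold change of -0.61. That replicate was at 0.729, and without it the Etv5 shRNA mean was 4.26 ± 1.06 (SD, n = 3) and the log2 fold change -0.22. Of its 50-base stretches 57.2% are also annotated in Tardbp, which overlaps it on the opposite strand and encodes an RNA-binding protein, so the coverage of Masp2 is uncertain. Masp1 and Fcna also overlap genes on the opposite strand, Rtp4 and Fcnaos.

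**Figure D3:**
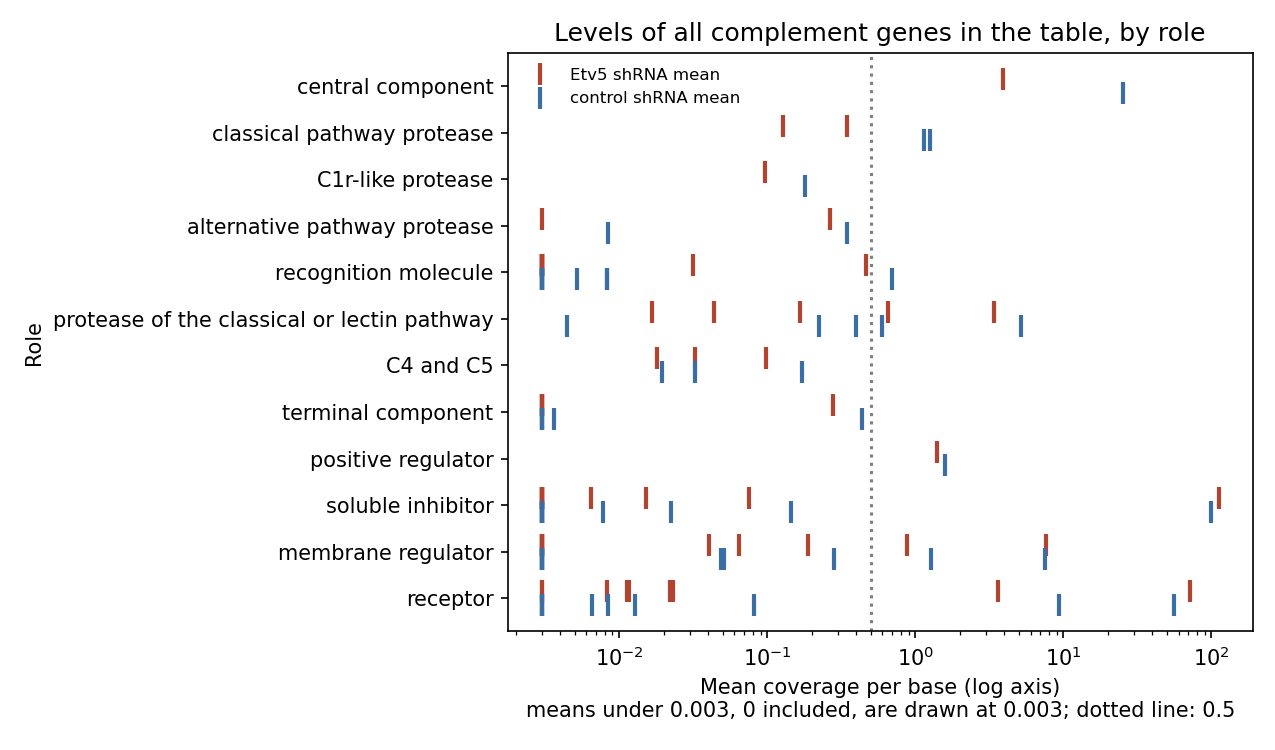
Mean coverage per base (log axis) of all 63 complement genes in the table by role, Etv5 shRNA above control shRNA in each row; each tick is the mean of 4 libraries of 1 gene, with means at or near 0 drawn at the left end, and the dotted line marks 0.5. C3, Clu, C1qbp, Itgb2, Cr1l and Masp2 are the genes with a mean above 2 in both groups.

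Most markers of other cell types were below 0.5 in every library. The highest, Cd68, Lipe and Pdgfra, reached 4.43, 3.98 and 3.54, above the highest values of C1s1 and C1ra. Of 14 leukocyte markers 1, Cd68, passed the filter, 11 were below 0.5 in all libraries, and Cd3e, Adgre1 and Tyrobp were at 0. The summed level of the 14 ran from 3.08 to 4.42 in the Etv5 shRNA libraries and from 3.60 to 5.76 in the control shRNA libraries. Without Etv5 shRNA replicate 3 the highest Etv5 shRNA sum was 3.60. For 8 fibroblast markers the sums were 1.15 to 4.16 with the Etv5 shRNA and 3.54 to 4.43 with the control shRNA, with Dcn and Lum at 0. The lowest Etv5 shRNA sum was 3.54 without replicate 3. The 2 that passed the filter went opposite ways. Pdgfra was at 2.15, 1.92, 0.519 and 1.91 in the Etv5 shRNA libraries, below all control shRNA libraries, which ran from 2.54 to 3.54. Postn was at 1.57, 1.86, 0.510 and 1.47 in the Etv5 shRNA libraries and at 0.781 to 0.908 in the control shRNA libraries, so it was above all of these except in replicate 3. For 6 adipocyte markers the sums were 2.75 to 3.38 with the Etv5 shRNA and 3.27 to 3.98 with the control shRNA, nearly all of it Lipe, with Adipoq, Cidec and Lep at 0. Endothelial markers summed to at most 0.125 and hepatocyte markers to at most 0.163, with Alb and Ttr at 0. The part of such cells in the values was not tested. In RNA of whole cultures, fewer cells that express a gene and less RNA per cell cannot be told apart.

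Genes beside the members on the chromosome were compared in the same fit. Within 50 kb of a member, 15 other protein-coding genes passed the filter, and by limma 0 of them were lower and 0 higher, with 1 at an unadjusted p under 0.05. Of all 11731 tested genes, 832 were under that unadjusted p by limma over 8 libraries and 2210 without Etv5 shRNA replicate 3. Without that replicate, 0 of the 15 neighbours were called and 2 had an unadjusted p under 0.05. Their log2 fold changes ran from -0.54 (Plppr3) to 0.51 (Nelfe). Without that replicate they ran from -0.44 (Ube2l6) to 0.24 (Ptbp1), with Plppr3 at 0.11. Gpr108 and Trip10, 6499 and 21319 bases from C3, were at -0.09 and -0.16 over 8 libraries and at -0.16 and -0.14 without the replicate. Nelfe, whose gene body ends 2 bases from that of Cfb, was at 0.51, with replicate 3 at 43.6 and overlapping groups, and at 0.22 without that replicate. Ube2l6, 23384 bases from Serping1, was at -0.49 (adjusted p 0.348 by limma), and at -0.44 (0.0856 by limma) without the replicate, and its groups did not overlap. Around C1ra and C1s1 no gene outside the members passed the filter. Gpr108 and Trip10 were thus the only tested neighbours of a tested member. The others lay beside Cfb, Cfd, Serping1 and Cd59a, which did not pass the filter.

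**Figure D4:**
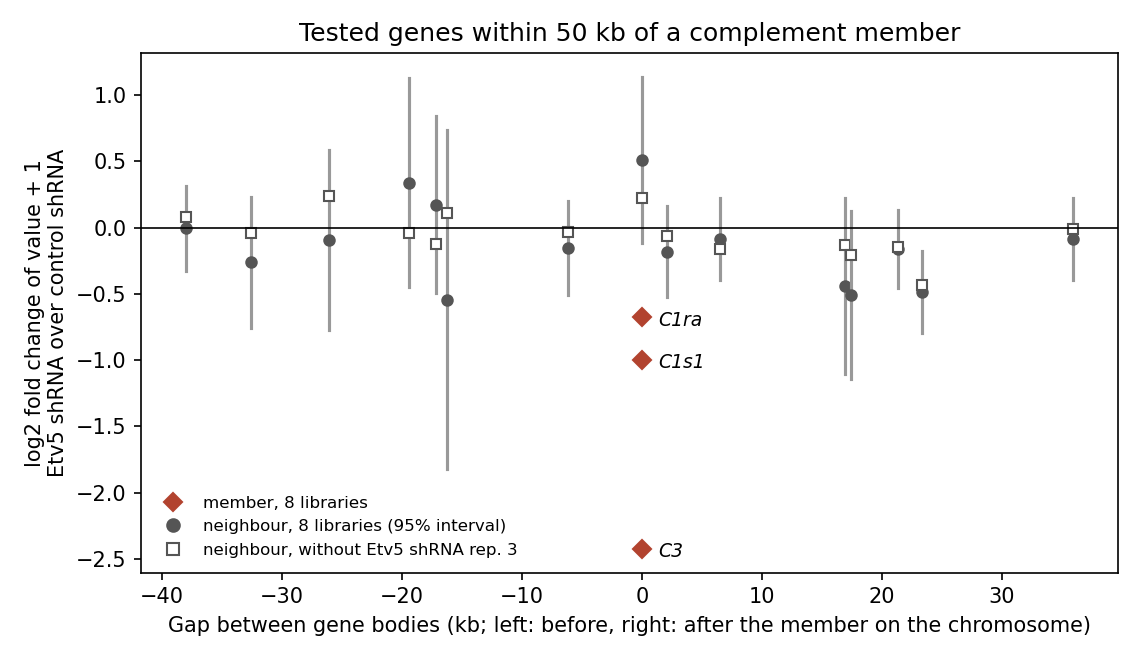
log2 fold change of value + 1, Etv5 shRNA over control shRNA, of the 15 tested genes within 50 kb of a complement member over 8 libraries (circles, with 95% intervals) and without Etv5 shRNA replicate 3 (open squares), by the gap between gene bodies in kb, and of the 3 tested members at a gap of 0 (diamonds, 8 libraries). The neighbours lie between -0.54 and 0.51 over 8 libraries and between -0.44 and 0.24 without that replicate, and C3, C1s1 and C1ra between -2.42 and -0.68. Gpr108 and Trip10 lie beside C3, and the other neighbours beside Cfb, Cfd, Serping1 and Cd59a, which were not tested. C1s1 and C1ra have no tested neighbour outside the members.

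The genes whose values ran most like those of C3 were found by the root mean square difference of log2(value + 1), centred per gene, over the 8 libraries. They were Zc3h12a, the gene of the RNase Regnase-1 (difference 0.199), Nfkbiz, the gene of the inhibitor-family protein IκBζ (0.300), the protease gene Prss12 (0.311), the cytokine gene Il1a (0.374) and the ubiquitin ligase gene Neurl3 (0.398). Zc3h12a was at 2.53, 2.25, 1.35 and 2.75 in the Etv5 shRNA libraries, against 15.6, 16.2, 13.8 and 14.5 in the control shRNA libraries. As for C3, Etv5 shRNA replicate 3 was the lowest of the 8. These genes were picked for likeness in the same comparison, and no test is given.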

How the data were processed

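RNA of 8 libraries of 4T1 cells was measured, 4 with an Etv5 shRNA and 4 with a control shRNA, grouped by sample title. The submitters' processing notes name STAR 2.7.10a and mm10. Per the file headers, the deposited values derive from coverage tracks. They are a signal, read from the values as mean coverage per base scaled to depth; the sources used here do not give the averaging program, its annotation or the read depth. The members, lists and tests were chosen with earlier results of these data known. A count test was planned for the case of counts and was not used.

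Genes at 0.5 or more in at least 4 of 8 libraries were tested on log2(value + 1) with limma 3.58.1 (R 4.3.3; trend on mean level, no covariate) and called at a Benjamini-Hochberg adjusted p under 0.05 over all of them. The same genes were tested when a library was left out. The fit was tested on simulated data, where it recovered 93.6% of changes of 1 in log2. The simulated spread was taken without Etv5 shRNA replicate 3, and changes were placed only in genes with control levels above those of C1s1 and C1ra. The percentage therefore does not cover that replicate's spread or genes as low as these. What share it recovers in the measured libraries was not tested. There the calls in either direction went from 58 to 368 when Etv5 shRNA replicate 3 was left out. Named genes were all members, Etv5, the other complement genes above the filter, called neighbours and the 5 genes most like C3. Other genes were named after their values were seen. Coordinates and transcript lengths came from GENCODE mouse release 21, with the longest transcript of a gene; 97.7% of rows had a length. Shared sequence was searched in 50-base stretches of GENCODE transcripts on both strands. Antisense genes overlap C1s1, C1rl and Cd55, and whether strand was used in counting is not given in the sources used here.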

Additional observations from a re-analysis of the deposited data

Results flagged for a closer look

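In groups of 4 libraries, a library was singled out where its gap to the nearest of the others took a share of the group's range above Dixon's 95% critical value. Of 42 groups screened, 9 passed. In 2 of these, both of Cfd, 3 libraries were at 0, so any value above 0 had to pass. Of the other 40 groups 7 passed, where chance gives about 2, and in 5 of the 7 the library was Etv5 shRNA replicate 3. It was the highest of its group for Fcna (0.692), Cfp (2.42), the sum of coverage values (390495) and the ribosomal protein share (21.7%), and the lowest in genes above 0 (13920). Control shRNA replicate 3 was the lowest of its group in genes above 0 (15126) and the highest for Cfd (0.0335). Etv5 shRNA replicate 4 was the highest for Cfd (0.00326), the other libraries of both groups being at 0. Control shRNA replicate 1 was the highest for Susd4 (1.39).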

How the results depend on the processing

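C3 and C1s1 stayed lower and called in all 18 alternatives, and C1ra stayed lower in all 18 and called in 7. All 18 reuse the same libraries, in which the members were already known to differ. C1ra lost its call by limma with equal sums (adjusted p 0.0585), quantile normalisation (0.0849), a pseudocount of 0.1 (0.088) and when any single library other than Etv5 shRNA replicate 3 was left out (0.0504 to 0.178). The replicate number as a block gave C1ra an adjusted p of 0.0847 by limma, 50 lower and 1 higher genes in all, and changed no other call named here. Same-numbered libraries deviated together in pairs 1, 3 and 4 (r across genes 0.549, 0.794 and 0.51) and less in pair 2 (0.092). Etv5 shRNA replicates 1 and 2 correlated better with control shRNA replicate 4 (0.691 and 0.693) and replicate 4 slightly better with control shRNA replicate 1 (0.519) than with their own numbers, so the numbers were not taken as pairs. The count of lower genes, 57, was 37 with a pseudocount of 0.1, and 28 to 241 without 1 library, the 241 without Etv5 shRNA replicate 3. The single higher gene became 7 with median-of-ratios scaling, 8 with quantile normalisation, 3 with no filter, 0 with equal sums or a pseudocount of 0.1, and 0 to 127 without 1 library. Without Etv5 shRNA replicate 3, added after the data were seen, 507 were lower and 408 higher with the length trend also removed, and 243 and 130 with median-of-ratios scaling. Of the 9 other complement genes 1, Itgb2, was called lower with quantile normalisation, without Etv5 shRNA replicate 3 and in both added settings. Of the 15 neighbours 1, Nelfe, was called higher with the length trend removed and without that replicate. Etv5 was not called under any of the 18. Median-of-ratios scaling put the median over all tested genes at 0.02 (log2), in place of -0.11, and C3 at -2.28. The causes were not tested.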
